A study of Mus musculus with 3 samples.

Results

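The NRF2 antioxidant response genes described here are 10 genes chosen by symbol: Nfe2l2, which encodes the transcription factor NRF2, its inhibitor Keap1, and the targets Hmox1, Txnrd1, Srxn1, Nqo1, Gclm, Gclc, Slc7a11 and Gsr. Each matched 1 of the 55536 annotated genes in the tables. Their RNA was measured in 3 libraries of ribosomal RNA-depleted total RNA from the chromatin fraction of primary macrophages grown from the bone marrow of C57BL/6J mice. All libraries came from the same condition. The macrophages were exposed to Lipid A, the lipopolysaccharide part that Toll-like receptor 4 senses, at 100 ng/ml over 12 h, then kept without it for 12 h and given 100 ng/ml anew for 120 min. RNA inputs were 1000 ng, 250 ng and 500 ng for replicates 1, 2 and 3, which the labels call biological replicates without saying whether they came from separate animals. Age and sex were not collected. The SD values and tests therefore measure only the spread between these libraries, which may be technical. No library of untreated or once-treated cells was analysed here, so the values describe levels and cannot show how Lipid A changed them.

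NRF2 is made continuously and degraded continuously. KEAP1, an adaptor of the cullin 3 ubiquitin ligase, holds it for degradation, and oxidants or electrophiles that modify cysteines of KEAP1 let newly made NRF2 reach the nucleus. There it pairs with small MAF proteins on antioxidant response elements and drives genes for glutathione synthesis, thioredoxin recycling, heme breakdown and quinone reduction. In macrophages the pathway is known for limiting oxidative damage during the inflammatory response. Because the control of NRF2 acts largely on protein stability, the RNA of Nfe2l2 is not a measure of NRF2 activity.

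The promoters are shown first because the antioxidant response element is the sequence that joins the targets into a pathway. RefSeq start sites on GRCm38.p6, the mm10 assembly, gave 9 windows of 300 bases (250 before to 50 after the start) for 7 of the 10 genes, with 3 windows for Txnrd1. Windows for Hmox1, Gclc and Gsr were not used here. The element core was searched on both strands as TGACNNNGC, and as TGANTCAGC, a form that overlaps with binding sequences of MAF and AP-1 proteins. The forms can overlap, since a TGANTCAGC match whose free base is C is also a TGACNNNGC match, and they were counted separately and together. TGACNNNGC was found in 12.4% of 32851 promoter windows of the same length, TGANTCAGC in 1.19% and either form in 13% of them. At least 1 match lay in windows of 4 genes: Nfe2l2, Srxn1, Gclm and Txnrd1. The printed stretches run from 250 to 31 bases before the start in the direction of the gene. Capitals mark a match, and where the match lies on the opposite strand they show its reverse complement. The first 4 hold a match and the last, from Nqo1, holds neither form.
Nfe2l2 (chr2:75704694-75704913, minus strand): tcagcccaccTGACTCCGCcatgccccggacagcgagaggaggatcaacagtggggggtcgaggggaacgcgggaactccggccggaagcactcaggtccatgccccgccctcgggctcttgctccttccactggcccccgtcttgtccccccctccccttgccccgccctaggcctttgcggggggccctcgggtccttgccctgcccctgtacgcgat
Srxn1 (chr2:152105274-152105493, plus strand): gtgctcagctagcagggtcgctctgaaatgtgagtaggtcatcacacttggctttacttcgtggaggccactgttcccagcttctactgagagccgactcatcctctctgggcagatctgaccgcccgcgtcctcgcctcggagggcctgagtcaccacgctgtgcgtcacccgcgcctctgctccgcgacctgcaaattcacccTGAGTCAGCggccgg
Gclm (chr3:122245307-122245526, plus strand): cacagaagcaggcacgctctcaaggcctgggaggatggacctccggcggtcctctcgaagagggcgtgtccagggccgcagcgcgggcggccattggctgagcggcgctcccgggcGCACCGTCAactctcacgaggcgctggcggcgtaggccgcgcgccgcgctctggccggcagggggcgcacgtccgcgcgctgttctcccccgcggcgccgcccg
Txnrd1 (chr10:82858956-82859175, plus strand): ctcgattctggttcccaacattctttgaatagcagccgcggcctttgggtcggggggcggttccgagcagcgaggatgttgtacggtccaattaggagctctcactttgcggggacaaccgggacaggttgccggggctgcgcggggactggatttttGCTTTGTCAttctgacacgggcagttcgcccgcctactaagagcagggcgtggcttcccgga
Nqo1 (chr8:107403236-107403455, minus strand): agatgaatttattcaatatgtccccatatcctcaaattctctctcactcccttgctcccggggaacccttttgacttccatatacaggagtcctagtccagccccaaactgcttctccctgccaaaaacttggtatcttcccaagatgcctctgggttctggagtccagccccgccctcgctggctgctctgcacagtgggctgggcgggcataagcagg

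In these windows the Nfe2l2 match, TGACTCCGC, began 240 bases before the start. The Srxn1 window held TGAGTCAGC from 45 bases before the start and, outside the printed stretch, TGACCTAGC on the opposite strand from base 28 after it. Gclm had TGACGGTGC on the opposite strand, 134 bases before the start at its far end. The window of Txnrd1 whose start site is base 82859206 of chromosome 10 had TGACAAAGC on the opposite strand, 92 bases before the start at its far end. The windows of Keap1, Slc7a11 and Nqo1, and the other two of Txnrd1, held neither form within these 300 bases. CpG dinucleotides also differed among the windows, with 48 in Gclm, 27 in the matching window of Txnrd1 and 3 and 12 in its others, 26 in Srxn1, 18 in Nfe2l2, 13 in Keap1, 5 in Nqo1 and 4 in Slc7a11, beside a median of 7 over all promoter windows. A match describes letters only, and no binding was measured in these libraries.

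Of the 10 genes, 9 were expressed, meaning a TPM (a transcript level scaled for length and for the library's total) of at least 1 in all 3 libraries. The exception was Nqo1. Each library was quantified from an alignment to the transcriptome (alignment-based, used here unless stated) and from the reads directly (read-based). That threshold was passed by 21.7% of all annotated genes and by 42% of 22028 protein-coding genes. Nfe2l2, Keap1 and Txnrd1 exceeded in all 3 libraries the median of expressed protein-coding genes (called the median gene), which held for 3 of the 10 genes and for 18.5% of protein-coding genes. Hmox1, Nqo1, Gclm and Gclc were below it in every library, and Srxn1, Slc7a11 and Gsr fell on both sides. The median gene is drawn from the 42% of protein-coding genes that were expressed, so a level below it is common. The share of protein-coding genes below it in every library was not computed. The median gene stood at 9.95, 13.9 and 12.1 TPM in replicates 1, 2 and 3. On the log2(TPM + 0.1) scale the median of the 10 genes differed from it by -0.49, -0.50 and 0.17 (-0.27 ± 0.38, SD, n = 3). The mean difference of the set's median was thus smaller than its SD over libraries, which is not the spread among the 10 genes. With only the expressed genes of the set the mean difference was -0.17.

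**Figure D1:**
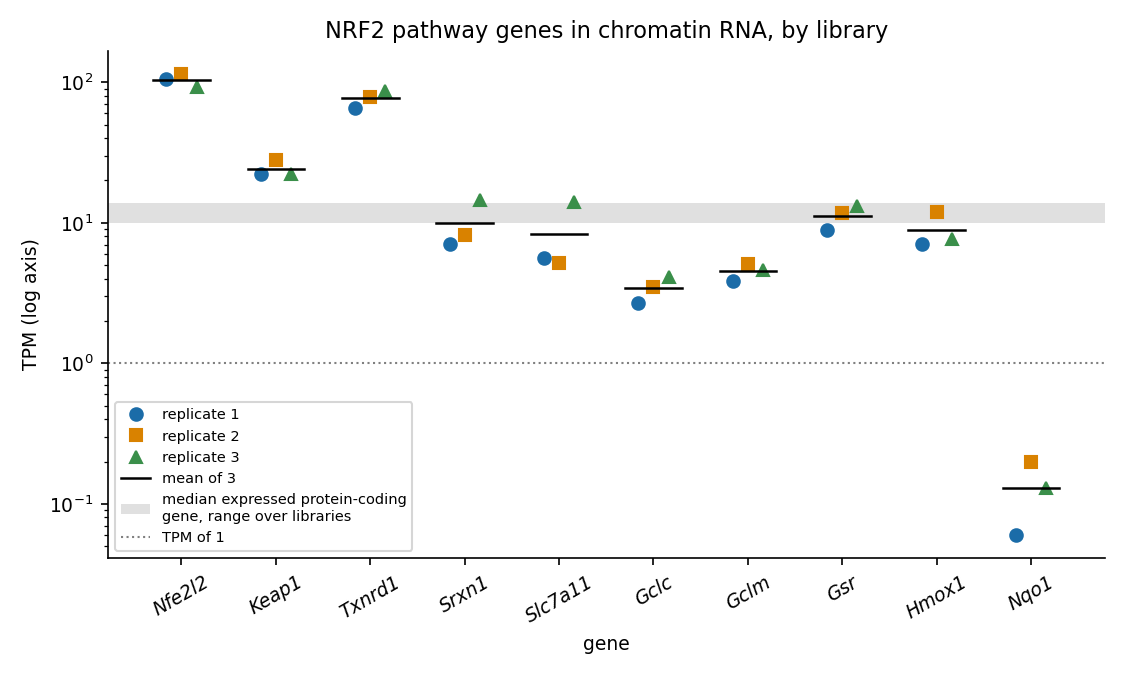
Alignment-based TPM of the 10 genes in each library on a log axis, with points for replicates 1, 2 and 3, a black line for their mean, a grey band for the range of the median expressed protein-coding gene over libraries and a dotted line at a TPM of 1. Nfe2l2 and Txnrd1 stand highest, Keap1 is the only other gene wholly above the band, and Nqo1 is wholly below a TPM of 1.

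Among the regulators, Nfe2l2 (ENSMUSG00000015839.6, chromosome 2, 75675513 to 75704641, minus strand) was the highest of the 10 genes. It was measured at 105, 115 and 92.4 TPM in replicates 1, 2 and 3 (104 ± 11.3, SD, n = 3). These values put it at percentiles 94.8, 94.1 and 93.7 of expressed protein-coding genes, so its rank hardly moved between libraries. Keap1 (ENSMUSG00000003308.15, chromosome 9, 21229730 to 21239361, minus strand) had 22.2, 27.9 and 22.3 TPM (24.2 ± 3.26), at percentiles 71.7, 70.4 and 68.1. Nfe2l2 exceeded Keap1 in all 3 libraries by 2.11 ± 0.11 on the log2(TPM + 0.1) scale, a 4.30-fold difference, and by 1.29 ± 0.51 (2.44-fold) with read-based levels. Bach1, a heme-sensing repressor that competes with NRF2 for the same elements, stood at 13.8, 15.7 and 11.6 TPM. The RNA level of Nfe2l2 was thus 7.59-fold that of Bach1, with a log2 difference of 2.92 ± 0.06 that was the steadiest of the 8 partner differences computed. Protein levels were not measured.

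Txnrd1 (ENSMUSG00000020250.10, chromosome 10, 82833951 to 82897712, plus strand) encodes the cytosolic thioredoxin reductase, which uses NADPH to return thioredoxin to its reduced form. Its level was 66.0, 78.2 and 86.1 TPM in replicates 1, 2 and 3 (76.8 ± 10.1, SD, n = 3), below every Nfe2l2 value and above every Keap1 value. Srxn1 (ENSMUSG00000032802.8, chromosome 2, 152105516 to 152111376, plus strand) encodes sulfiredoxin, which restores overoxidised peroxiredoxins. It had 7.07, 8.22 and 14.5 TPM (9.93 ± 3.99), with replicate 3 apart from the other libraries. Txnrd1 exceeded Srxn1 8.01-fold, a log2 difference of 3.00 ± 0.38 with the same direction in 3 of 3 libraries.

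Of the glutathione genes, Gclc and Gclm were below the median gene in every library, while Slc7a11 and Gsr fell on both sides of it. Slc7a11 (ENSMUSG00000027737.10, chromosome 3, 49892526 to 50443614, minus strand) encodes the light chain of the cystine/glutamate exchanger that brings in the cysteine for glutathione. It was measured at 5.65, 5.18 and 14.1 TPM in replicates 1, 2 and 3 (8.31 ± 5.03, SD, n = 3). Replicate 3 alone lay above the median gene, and the mean of replicates 1 and 2 without it was 5.42 TPM. Slc3a2, the heavy chain that Slc7a11 needs at the cell surface and that serves other amino acid transporters too, stood at 123, 104 and 92.3 TPM. Slc7a11 was below it in every library, with a log2 difference of -3.81 ± 0.96, or 14.0-fold. In deposited TPM the order of replicates was not shared, since Slc3a2 was lowest where Slc7a11 was highest. Slc3a2 had 2278, 2284 and 2255 expected counts in replicates 1, 2 and 3. Its order of replicates under other scalings was not examined.

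Glutamate-cysteine ligase, the enzyme that limits glutathione synthesis, has a catalytic subunit from Gclc and a modifier subunit from Gclm. Gclc (ENSMUSG00000032350.9, chromosome 9, 77754535 to 77794485, plus strand) had 2.69, 3.49 and 4.12 TPM in replicates 1, 2 and 3 (3.43 ± 0.72, SD, n = 3). Gclm (ENSMUSG00000028124.15, chromosome 3, 122245557 to 122270732, plus strand) had 3.87, 5.08 and 4.59 TPM (4.51 ± 0.61). The ranges of the subunits overlapped across libraries, but within each library Gclc was the lower one, by a log2 difference of -0.40 ± 0.21, or 1.32-fold. Gsr (ENSMUSG00000031584.16, chromosome 8, 33652523 to 33698163, plus strand) encodes glutathione reductase, which uses NADPH to recycle oxidised glutathione. It stood at 8.82, 11.7 and 13.1 TPM (11.2 ± 2.19), close to the median gene in each library. Txnrd1, the corresponding reductase of the thioredoxin arm, exceeded Gsr 6.84-fold with a log2 difference of 2.77 ± 0.10. With read-based levels the difference was 1.43 ± 0.21, or 2.69-fold, so its size depends on the table.

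Hmox1 and Nqo1, targets commonly used as readouts of NRF2, lay far apart. Hmox1 (ENSMUSG00000005413.8, chromosome 8, 75093621 to 75100589, plus strand) encodes heme oxygenase 1, which opens heme into biliverdin, carbon monoxide and iron. Its level was 7.08, 11.9 and 7.63 TPM in replicates 1, 2 and 3 (8.87 ± 2.64, SD, n = 3), from 105, 213 and 156 expected counts. Nqo1 (ENSMUSG00000003849.8, chromosome 8, 107388225 to 107403206, minus strand) encodes a quinone reductase. It had 0.06, 0.20 and 0.13 TPM (0.13 ± 0.07) from 1, 4 and 3 expected counts. The exact 95% Poisson intervals of those counts were 0.03 to 5.57, 1.09 to 10.2 and 0.62 to 8.77, and they cover counting error only. Nqo1 was therefore detected at the edge of what this depth can show, while Hmox1 was below the median gene in each library but well counted.

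Hmox1 exceeded Nqo1 39.2-fold on the log2(TPM + 0.1) scale (5.29 ± 0.21), which understates a difference against so low a gene. Summed over the libraries, 474 expected counts of Hmox1 stood against 8 of Nqo1, and the ratio of these counts, not scaled for length, had an exact 95% interval of 29.8 to 138, which covers counting error only and no spread between libraries. Blvrb, a biliverdin reductase that acts after heme oxygenase, was measured at 109, 80.0 and 48.3 TPM. Hmox1 was lower than Blvrb in every library, with a log2 difference of -3.10 ± 0.71, or 8.58-fold.

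All 8 partner differences had the same direction in 3 of 3 libraries, and each gave p = 0.25 in an exact two-sided sign-flip permutation test, also after Benjamini-Hochberg adjustment over the 8 pairs (0.25). This is the smallest p that 3 libraries allow. In order of mean TPM the 10 genes ran Nfe2l2, Txnrd1, Keap1, Gsr, Srxn1, Hmox1, Slc7a11, Gclm, Gclc and Nqo1. Of the 9 neighbouring pairs in this order, 5 had ranges over libraries that did not overlap. These were Nfe2l2 above Txnrd1, Txnrd1 above Keap1, Keap1 above Gsr, Slc7a11 above Gclm and Gclc above Nqo1. The other 4 pairs overlapped, so the order among Gsr, Srxn1, Hmox1 and Slc7a11 was not resolved in this table. With read-based levels, which were compared after seeing the data, 3 of the 9 pairs did not overlap: Txnrd1 above Keap1, Gsr above Srxn1 and Gclc above Nqo1. There Txnrd1 exceeded Nfe2l2 in replicate 3 (97.1 beside 81.8 TPM), Gclm exceeded Slc7a11 in replicate 2 (15.0 beside 9.68 TPM), and the ranges of Keap1 and Gsr overlapped although Keap1 was higher in 3 of 3 libraries. Only Txnrd1 above Keap1 and Gclc above Nqo1 were thus apart in both tables. Srxn1 was above its neighbour Hmox1 in 1 of 3 libraries only. The gap from Slc7a11 to Gclm, 0.72 ± 0.80 on the log2 scale, was smaller than its own SD although it had the same direction in 3 libraries. These levels count all transcripts of a gene. In coding transcripts alone, alignment-based, Slc7a11 had 2.18 ± 1.05 TPM, below Gclm at 3.77 ± 0.15 TPM. There Nfe2l2, Txnrd1, Keap1 and Gsr kept their order by mean, as did Gclc above Nqo1.

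The spread between libraries was then taken after TMM scaling of counts (CPM, counts scaled to library sizes that are corrected for composition). Slc7a11 was the least repeatable of the 9 expressed genes, with 33.0, 19.2 and 59.4 CPM in replicates 1, 2 and 3. Its highest value was 3.10-fold its lowest, and its SD of log2 CPM, 0.80, lay at percentile 98.6 of 9244 expressed protein-coding genes. The other 8 had SD values from 0.19 for Hmox1 (percentile 35.8) and 0.19 for Keap1 (37.9) to 0.33 for Gclm (68.5). Txnrd1 had 0.33 (68.3), Nfe2l2 0.31 (65.8), Srxn1 0.29 (60.6), Gsr 0.23 (47.2) and Gclc 0.22 (43.8). The median over the 9 was 0.29, beside 0.24 over all those genes. Nqo1 had 8 counts in all, under the minimum of 10, and got no SD.

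The libraries did not rank the genes alike. By TMM-scaled CPM, replicate 3 was the highest library for 6 of the 9 genes (Txnrd1, Srxn1, Slc7a11, Gclc, Gclm and Gsr), as it was for 32.9% of expressed protein-coding genes. Replicate 1 was highest for 2 genes, Nfe2l2 and Keap1, beside 38.1% of those genes, and replicate 2 for Hmox1 alone, beside 29%. Under 5 scalings (TPM, rescaled TPM, TMM and DESeq2 CPM, and read-based TPM) the highest library stayed replicate 3 for Txnrd1, Srxn1, Slc7a11, Gclc and Gsr, and replicate 2 for Hmox1, while it changed with the scaling for Nfe2l2, Keap1, Gclm and Nqo1. Txnrd1 shows the size of these differences, at 181, 129 and 200.1 CPM. Srxn1 had 18.3, 18.4 and 26.1 CPM and Gsr 23.8, 24.8 and 32.1 CPM, each with replicates 1 and 2 close together. Nfe2l2 ran the other way in these units, at 228, 159.6 and 154 CPM. RNA input differed between the libraries, and its part in these differences was not tested.

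**Figure D2:**
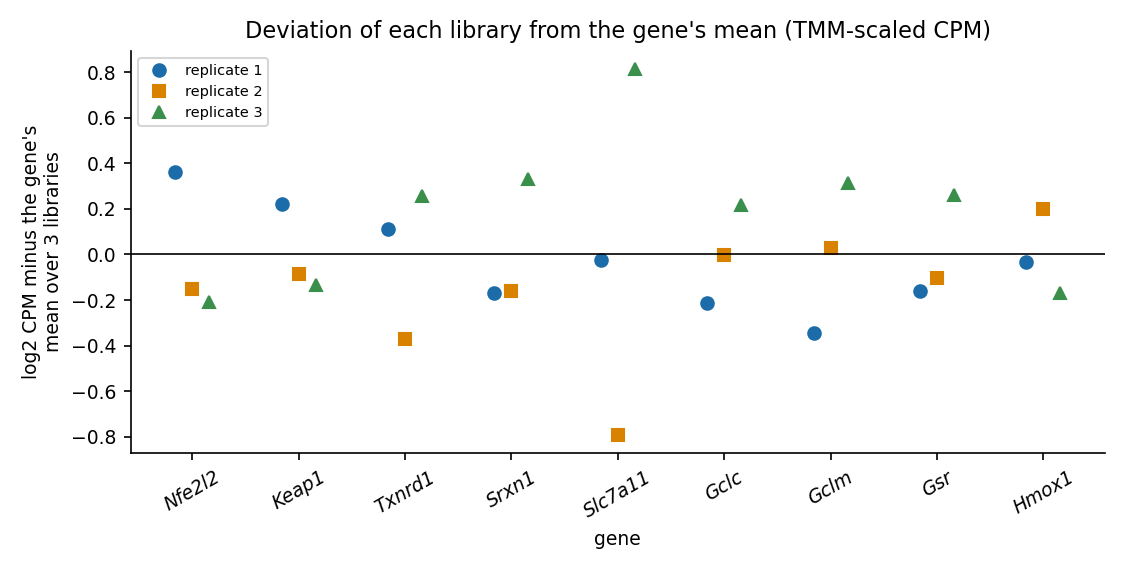
TMM-scaled log2 CPM of each library minus the gene's mean over 3 libraries, for the 9 expressed genes, with a circle, square and triangle for replicates 1, 2 and 3. Slc7a11 has the widest spread (SD 0.80), and replicate 3 is the highest point for 6 genes.

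The transcript tables showed which annotated isoforms carried these levels. The 10 genes have 40 annotated transcripts, and isoforms are typed as protein coding, as retained intron (a transcript that keeps intron sequence, where reads of unspliced RNA can be placed) or as processed transcript (spliced without a coding frame). A retained-intron isoform is annotated for 4 of the 9 expressed genes, Hmox1, Txnrd1, Gclm and Slc7a11, and for 64.5% of expressed protein-coding genes. In the alignment-based table, Slc7a11 had 65.8%, 75.3% and 76.4% of its TPM in such isoforms (72.5% ± 5.81, SD, n = 3), percentile 88.0 of the 5967 genes that have one. Most of it was in Slc7a11-202, which has 6 exons and took 37.6%, and in Slc7a11-204, a single exon from 50440929 to 50443605 at the start of the gene, which took 35.0%. The coding isoform Slc7a11-201 took 27.5% ± 5.81.

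Txnrd1 had 46.8%, 59.6% and 45.1% of its TPM in retained-intron isoforms (50.5% ± 7.94), at percentile 56.6. Of this, Txnrd1-202 took 22.1% of the gene's TPM from 51.8, 83.6 and 60.5 expected counts. Hmox1 had 26.3%, 20.5% and 16.3% (21% ± 5.05) and Gclm 0%, 22.3% and 19.2% (13.8% ± 12.1), at percentiles 13.3 and 7.06. In this table the 4 genes thus covered most of the range of this share rather than lying together. The share of Gclm rests on 0, 4.25 and 3.74 expected counts of its retained-intron isoform Gclm-205. Read-based, it was 39.8% ± 7.26, beside 26.6% ± 1.71 for Hmox1, 51.3% ± 9.78 for Txnrd1 and 80.7% ± 5.41 for Slc7a11. The alignment-based median of the 4 genes was 36.6% ± 4.41, beside 47.0% ± 1.49 over the 5967 genes. In the read-based table the same medians were 45.5% ± 1.26 and 44.9% ± 1.78.

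Nfe2l2 has no retained-intron isoform, but on average more of its TPM was in Nfe2l2-202 than in its coding transcript. Nfe2l2-202 is a processed transcript of 2 exons (75691052 to 75704489) and had 50.5, 70.6 and 52.4 TPM, beside 54.7, 44.2 and 40.0 TPM for the coding Nfe2l2-201. Its share was 55.4% ± 6.82 in the alignment-based table and 56.4% ± 5.47 in the read-based one, so both quantifications divided the gene alike. In replicate 1 alone the coding transcript was the higher by alignment-based TPM. By expected counts, which are not scaled for length, the coding transcript was the higher in every library. It had 1560, 1527 and 1529 counts, beside 803, 1307 and 1078 for Nfe2l2-202, so which transcript leads depends on the unit.

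Txnrd1-201 and Txnrd1-205, coding isoforms that start at different first exons, were not stable between libraries in the alignment-based table. Txnrd1-201 had 0.74, 14.2 and 20.7 TPM in replicates 1, 2 and 3 of the alignment-based table, while Txnrd1-205 had 17.9, 4.0 and 6.96 TPM. In the read-based table Txnrd1-201 had 0.40, 0.96 and 3.16 TPM and Txnrd1-205 had 15.5, 11.1 and 15.3 TPM. The tables thus placed these reads differently. The sum over coding isoforms was closer between them (38.0 ± 8.22 TPM alignment-based, 43.9 ± 9.20 read-based). So was Txnrd1-206, at 2.13, 4.30 and 9.48 TPM beside 2.45, 4.55 and 7.75 read-based. Txnrd1-203 was not, at 0 in each library beside 13.3, 2.61 and 3.12 TPM read-based. Over the 10 genes the median share of TPM in protein-coding isoforms was 77.0% ± 1.5, beside 53.8% ± 0.31 over expressed protein-coding genes. In the read-based table these medians were 46.8% ± 6.61 and 46.8% ± 1.64, so the higher share was seen with the alignment-based table only.

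**Figure D3:**
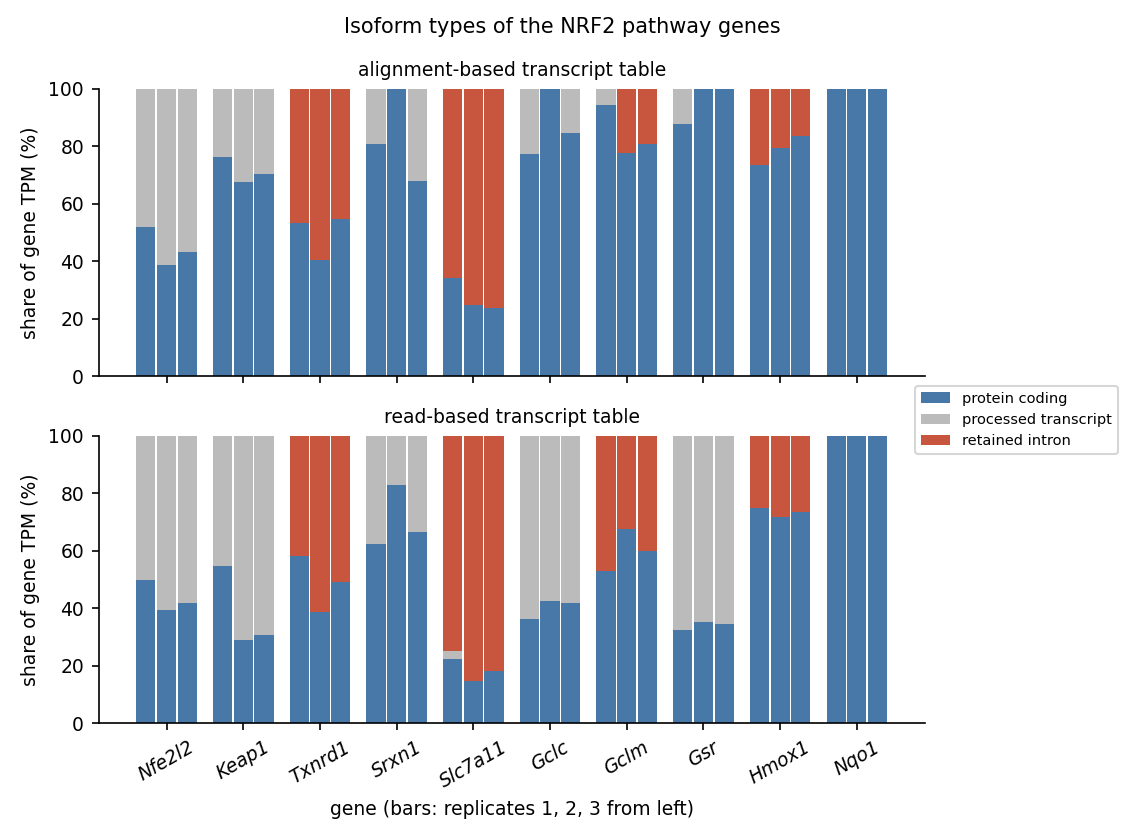
Share of each gene's TPM (percent) in protein-coding, processed and retained-intron isoforms, with 3 bars per gene for replicates 1, 2 and 3, from the alignment-based table (top) and the read-based table (bottom). Slc7a11 is mostly retained intron in both, and Gsr and Gclc turn from mostly coding to mostly processed transcript between the tables. Keap1 does so in replicates 2 and 3 but not in replicate 1.

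Among the genes chosen by symbol, the quantifications differed most for Gsr, Gclm and Gclc. Slc7a11, described with them among the glutathione genes, differed less, 1.65-fold beside 1.66-fold for the regulator Keap1. Whether glutathione genes as a group differed more than others was not tested. Gsr was at 27.3, 35.4 and 38.4 TPM in the read-based table (33.7 ± 5.73, SD, n = 3), above its alignment-based values by 1.58 ± 0.04 on the log2 scale, or 2.99-fold. That is percentile 95.2 of this difference among expressed protein-coding genes, whose median was 0.39. The coding transcript Gsr-201 hardly moved (10.9 ± 2.79 TPM alignment-based, 11.5 ± 2.34 read-based). The noncoding rows went from 0.36 ± 0.62 to 22.2 ± 3.41 TPM, mostly in Gsr-202, a processed transcript of 9 exons with 14.8, 18.6 and 20.4 TPM read-based beside 1.08, 0 and 0 alignment-based. Gclc was higher by 1.07 ± 0.05 (2.10-fold) in the read-based table, again with coding rows near equal (3.02 ± 0.81 and 2.99 ± 0.89 TPM) and noncoding rows at 0.41 ± 0.36 and 4.35 ± 0.83 TPM. For Gclm, read-based values of 7.83, 15.0 and 13.9 TPM were higher by 1.37 ± 0.32 (2.59-fold), and here coding rows were higher too, at 7.53 ± 3.07 beside 3.77 ± 0.15 TPM.

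Keap1 was 1.66-fold higher in the read-based table (0.73 ± 0.23 on the log2 scale), and its coding rows were not higher (14.7 ± 2.06 beside 17.2 ± 1.6 TPM). The excess was in its processed transcript Keap1-203, at 13.9, 35.2 and 29.0 TPM beside 5.28, 9.02 and 6.60. The alignment-based values of Keap1-203 rest on 11, 12 and 10 expected counts only, of 671, 926 and 858 for the gene. Slc7a11 was 1.65-fold higher (0.72 ± 0.44), with its noncoding rows at 10.3 ± 2.83 beside 6.13 ± 4.02 TPM. Nfe2l2, Txnrd1, Hmox1, Srxn1 and Nqo1 had mean differences between -0.11 and 0.26. Counted over the expressed genes, 7 of 9 were higher read-based in every library, beside 71% of expressed protein-coding genes, so the direction was that of most genes.

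**Figure D4:**
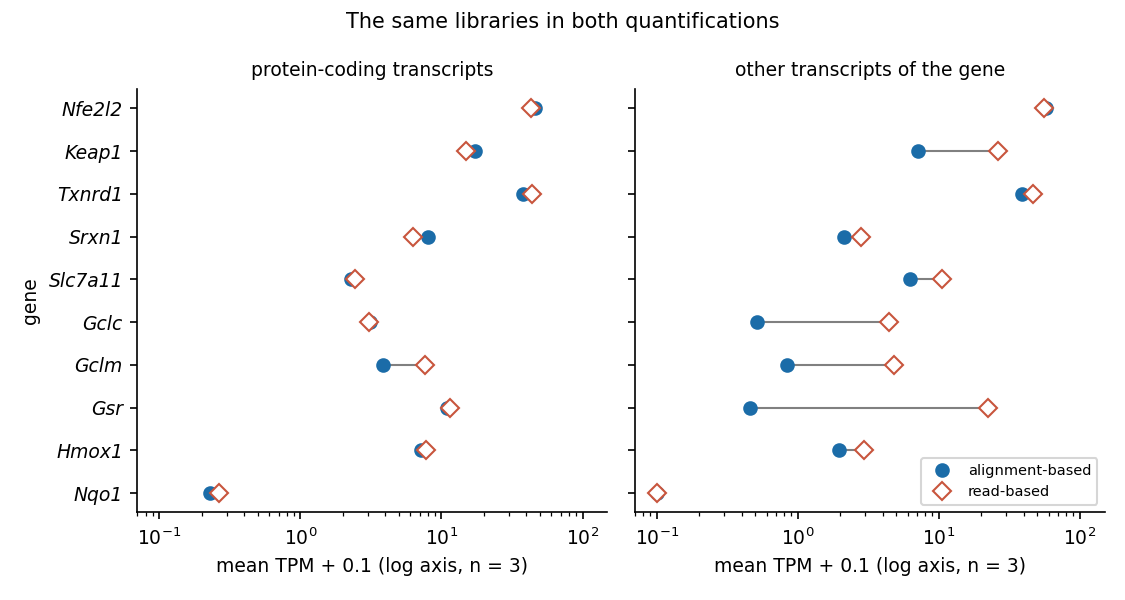
Mean TPM + 0.1 over 3 libraries (log axes) for the protein-coding transcripts of each gene (left) and its other transcripts (right), with filled circles for the alignment-based and open diamonds for the read-based table. Coding rows nearly coincide except in Gclm, and the other rows of Gsr, Gclc, Gclm and Keap1 lie far apart.

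An annotated gene overlaps 6 of the 10 genes, and the strand setting of the counting is not given in the sources used here. Reads from opposite strands may thus not have been told apart. Eid3, a coding gene on the same strand inside Txnrd1 (chromosome 10, 82866626 to 82867930), had 31.4 ± 3.25 TPM. Gm16754, antisense to the end of Keap1, had 9.49 ± 1.33 TPM, and Gm17494, opposite to Gclm, had 2.23 ± 0.65 TPM. Gm6061, a pseudogene inside Gclm, was at 0.35 ± 0.31 TPM, and Gm37498, inside Slc7a11 on the same strand, at 0.87, 1.24 and 2.59 TPM, highest in the library where Slc7a11 was highest. Gm24727, a small nucleolar RNA inside Gsr, had 1612, 803 and 824 TPM from 306, 38 and 42 counts. Srxn1, Gclc, Hmox1 and Nqo1 overlap no annotated gene.

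Around these genes, 64 others of the pathway in 6 lists were read in the same libraries. Of these, 50 were expressed, beside 42% of protein-coding genes, and 24 exceeded the median gene throughout, beside 18.5%. The same shares stand beside the counts of each list. By role, 12 of 14 regulators were expressed and 8 of them exceeded the median gene throughout. Sqstm1, the autophagy receptor that can draw KEAP1 away from NRF2, had 200.3 ± 19.1 TPM (SD, n = 3) and Nfe2l1, the related factor NRF1, had 69.1 ± 13.6 TPM. Bach2 was lowest at 0.32 ± 0.30 TPM. Of the 11 thioredoxin and peroxiredoxin genes, 9 were expressed and 5 were above the median gene throughout. Prdx1, a peroxiredoxin whose overoxidised form sulfiredoxin repairs, stood at 98.6 ± 24.8 TPM, Prdx5 at 63.8 ± 16.2 TPM and Txnrd3 at 0.88 ± 0.48 TPM.

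The glutathione list had 11 of 16 genes expressed and 4 above the median gene throughout. Its highest were Abcc1, an exporter of glutathione and its conjugates, at 109 ± 18.2 TPM, and Slc3a2 at 106 ± 15.6 TPM, and Gsta4 was listed at 0 in each library. Among 6 genes of NADPH supply, 5 were expressed and 3 were above the median gene throughout. Pgd, of the pentose phosphate pathway, had 109 ± 19.1 TPM, Tkt 20.5 ± 2.01 TPM and Me1 0.48 ± 0.20 TPM.

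All 8 heme and iron genes were expressed, and 4 were above the median gene throughout. The ferritin genes led them, with Fth1 at 1086 ± 362 TPM and Ftl1 at 327 ± 56.8 TPM, while Abcb6 had 2.11 ± 0.56 TPM. Of the 9 detoxification genes, 5 were expressed and 0 were above the median gene throughout, beside 42% and 18.5% of protein-coding genes. No difference of so short a list from these shares was tested. Ugdh, at 11.9 ± 3.39 TPM, and Cat, the gene of catalase, at 5.52 ± 1.01 TPM, were its highest, and Aldh3a1 was listed at 0 in each library.

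**Figure D5:**
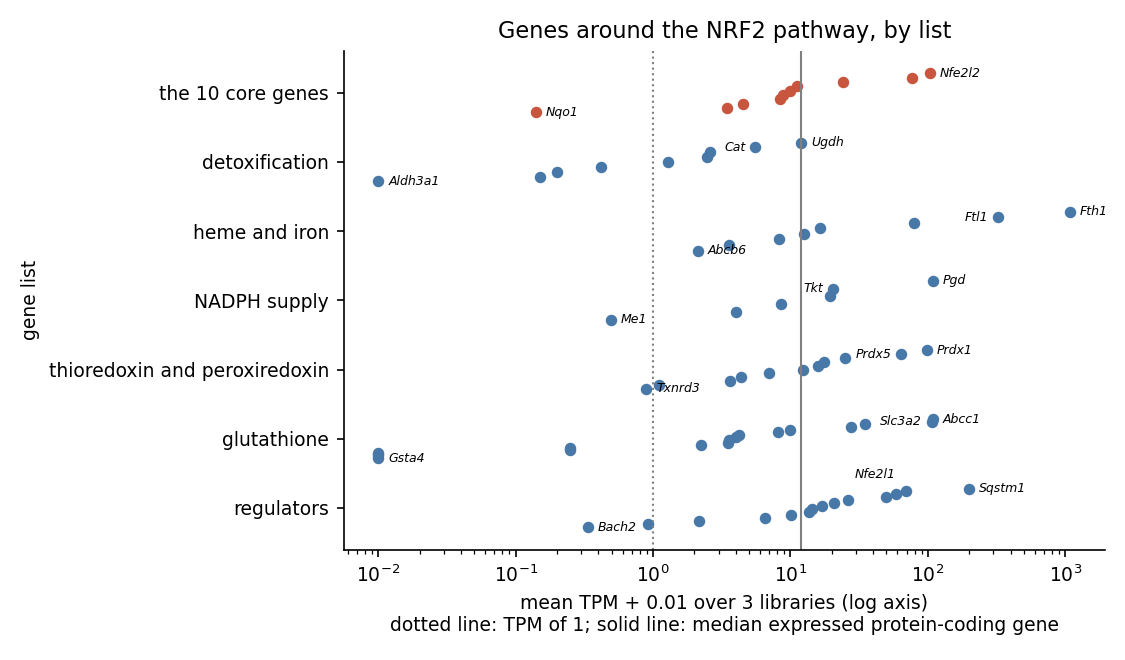
Mean TPM + 0.01 over 3 libraries (log axis) of the 10 genes (red) and of 64 further pathway genes in 6 lists (blue), 1 point per gene, with the highest and lowest of the 10 and the highest pair and lowest gene of each other list named, a dotted line at a TPM of 1 and a solid line at the median expressed protein-coding gene. Fth1 is the highest at 1086 TPM. The detoxification list has 0 of 9 genes above the median gene throughout, beside 18.5% of protein-coding genes.

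The libraries carried the markers of their labelled cell type. All 10 macrophage markers were expressed, beside 42% of protein-coding genes. Their summed level was 1091 to 1698 TPM, with Adgre1 highest at 708 ± 128 TPM. Of 39 markers of 8 other cell types, 4 were expressed, again beside 42%. These were Vwf (15.7 ± 6.22 TPM), Kdr (7.39 ± 1.80), Alas2 (4.2 ± 1.47) and Cd4 (1.99 ± 1.24). The summed levels ran from 15.4 to 30.9 TPM for 4 endothelial, 2.72 to 5.65 TPM for 6 erythroid and 1.21 to 3.95 TPM for 5 T cell markers. In lists with 0 expressed markers the highest were Zbtb46 of dendritic cells (1.05 ± 0.45 TPM), Pdgfrb of fibroblasts (0.91 ± 0.28), Kit of mast cells (0.54 ± 0.19), S100a9 of neutrophils (0.25 ± 0.43) and Cd79a of B cells (0.20 ± 0.26). Of the 39, 10 were at 0 in every library, among them 5 of the 6 erythroid markers. In bulk RNA, fewer cells of a type and less RNA per cell cannot be told apart. The gene tables of replicates 1, 2 and 3 summed to 10293545, 17820066 and 17548564 expected counts.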

How the data were processed

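Ribosomal RNA-depleted chromatin RNA was measured in 3 libraries of 1 condition, so no groups were compared. Per library, the authors deposited gene and transcript tables of expected (estimated) counts and TPM from an alignment to the transcriptome, and a transcript table of estimated counts and TPM made from the reads directly. They are called alignment-based and read-based. Per the deposited notes, the build is mm10 with GENCODE M21. Versions and settings of the programs, strand included, were not given in the sources used. Deposited TPM is relative to all RNA of a library, so abundant short RNAs lower every other value. Of 81881 gene rows, 55536 were annotated genes, 26248 had numeric identifiers and 97 were spike-ins, and only annotated genes entered levels and tests.

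The 10 genes, the wider lists and the tests were chosen with earlier results of these data known. All 10 are named, and of each wider list the highest pair and the lowest gene by mean TPM. Of each cell type's markers the highest is named, and Kdr also, after its value was seen. Isoforms and overlapping genes were likewise picked after their values were seen. Levels are on the log2(TPM + 0.1) scale, which understates differences of low genes. Partner differences were taken within libraries and tested with an exact sign-flip permutation test. Expected counts were rounded and scaled with TMM (edgeR 4.0.16, R 4.3.3) for genes of at least 10 counts in all, and spread is the SD of log2(CPM + 0.5). Promoters came from RefSeq on GRCm38.p6. Alternatives were pseudocounts of 0.01 and 1, thresholds of 0.5 and 5 TPM, only the expressed genes, read-based values, TPM rescaled over nuclear annotated genes of effective length of at least 200 bases, DESeq2 1.42.0 size factors, no count filter, shares of estimated counts, and leaving out each replicate. The order of levels was also read in the rescaled and read-based tables, a check chosen after seeing the data. The code for the spread between libraries was tested on simulated counts.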

Additional observations from a re-analysis of the deposited data

How the results depend on the processing

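Of 155 alternatives, 134 were counted as kept, 21 moved a value beyond the spread between replicates and 0 reversed a tested direction. For partner differences, kept means the same direction, whatever the size. Txnrd1 minus Gsr went from 2.77 ± 0.10 to 1.43 with read-based TPM and still counts as kept. Numbers of expressed genes were also counted as kept at a TPM threshold of 5, where they fell as given below. The 56 alternatives of the 8 partner differences kept their direction with p of 0.25 to 0.5 (exact sign-flip test), but neither value can pass a threshold of 0.05, so this says nothing about significance. Rescaling TPM raised all values, the median expressed protein-coding gene by 1.32 and the median of the 10 genes from 3.31 to 4.63 on the log2 scale, and moved the level of each of the 10 genes with it, by construction. Relative to the median gene, the set's median changed from -0.27 to 0.03 with rescaled TPM and to 0.05 with read-based TPM, within its SD, so its side of the median gene is not settled. Read-based TPM moved the level of 5 genes (Keap1, Txnrd1, Gclm, Gclc and Gsr), the median retained-intron share from 36.6% to 45.5% and the median protein-coding share from 77.0% to 46.8%. As shares of estimated counts, which are not scaled for isoform length, these medians were 22% and 97.6%. The cause of the differences between the tables was not tested. A TPM threshold of 5 left 7 of the 10 and 34 of the 64 wider genes expressed, and other settings gave 9 of the 10 genes and 50 to 53 of the wider ones. The median spread ran from 0.22 to 0.31 over all settings. Without replicate 3 the mean level of Slc7a11 was 5.42 TPM in place of 8.31. The depth limits Nqo1 to 8 counts in all. Its difference from Hmox1 was 3.10 with a pseudocount of 1 and 6.09 with 0.01. Neighbouring pairs with ranges that did not overlap numbered 5, and 3 with read-based TPM, in an alternative chosen after seeing the data. With rescaled TPM they also numbered 5, but Gclm above Gclc took the place of Slc7a11 above Gclm.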
